A study of Mus musculus with 20 samples.

Results

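The 10 genes described here are ones that astrocytes and Bergmann glia, the radial astrocytes of the cerebellar cortex, are known to use: Glul, Mlc1, Acsbg1, Aqp4, Gfap, Slc1a2, Slc1a3, Gja1, Aldoc and S100b. Every probe set annotated to 1 of these genes was taken, which gave 22 of the 22690 probe sets on the array, for 10 of the 12393 genes that had a probe set of their own. Slc1a2, Mlc1 and Acsbg1 had 1 probe set each, Slc1a3 had 3, Gja1 had 6 and the other genes had 2. The annotation named a single gene for each of the 22 probe sets. All 22 passed the filter on dim signals, and all but the Slc1a2 probe set lay above the filter limit on all 20 arrays. Slc1a2 did so on all 10 forebrain arrays and 9 of 10 cerebellum arrays.

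RNA of mouse cerebellum and forebrain was hybridised to 20 single-colour oligonucleotide arrays, which fall into 8 groups by genotype, region and age. Knock-in cerebellum, wild-type cerebellum, knock-in forebrain and wild-type forebrain had 3 arrays each at 4 weeks of age and 2 arrays each at 11 weeks, an age that the titles give as 12 weeks. The labels name neither the knocked-in allele nor the strain or sex, and the wild-type mice are described by that word alone. No label says that a group's arrays hold RNA of different mice, so p-values here cover only spread between arrays that may be technical repeats. For 7 of the 10 forebrain arrays the source field names cerebellum, and these arrays were placed in forebrain by the code Cx in their titles. They are all knock-in forebrain arrays of 4 weeks and all forebrain arrays of 11 weeks. At 4 weeks the conflict of labels thus falls on knock-in forebrain and not on wild-type forebrain. For knock-in forebrain replicate 3 at 4 weeks the description names cerebellum as well. Pcp2, a Purkinje cell gene, gave intensities of 50.0 to 579 on the 10 forebrain arrays and 38010 to 55244 on the 10 cerebellum arrays. The 10 forebrain arrays therefore all lacked the Purkinje cell signal that every cerebellum array carried, whatever their source field named.

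Astrocytes take up the glutamate that neurons release, turn it into glutamine and return it, and they buffer water and potassium around synapses and vessels. Slc1a3 (GLAST) and Slc1a2 (GLT-1) are their glutamate transporters, of which the first is known as the main one of Bergmann glia and the second as the main one of forebrain astrocytes. Glul is glutamine synthetase, Aqp4 is the water channel of astrocyte endfeet, Mlc1 is a membrane protein of the same endfeet, and Gja1 is connexin 43, the main gap junction protein of astrocytes. Aldoc is a glycolytic aldolase that a subset of Purkinje cells also makes, Acsbg1 activates long fatty acids, Gfap is the astrocyte intermediate filament, and S100b is a calcium-binding protein. These genes are read here in whole tissue, where fewer cells of a type and less RNA per cell cannot be told apart.

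The sequences before the start sites are shown for 5 of the genes, picked by their results. Glul, Mlc1 and Acsbg1 were lower in knock-in forebrain, and S100b and Slc1a2 had the largest regional differences in each direction. The part of the sequences in these differences was not tested. Each is the 250 bases before the start, written 5′ to 3′ on the gene's strand, from RefSeq promoters of the GRCm38.p6 assembly. Capitals mark matches to any of 3 motifs searched on both strands.
Glul, chr1:153899679-153899928, + strand: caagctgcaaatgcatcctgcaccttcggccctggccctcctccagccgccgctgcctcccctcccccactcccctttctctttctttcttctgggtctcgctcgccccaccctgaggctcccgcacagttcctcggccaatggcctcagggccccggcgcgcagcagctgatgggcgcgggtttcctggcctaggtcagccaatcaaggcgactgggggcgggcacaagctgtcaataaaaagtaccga
Mlc1, chr15:88978554-88978803, - strand: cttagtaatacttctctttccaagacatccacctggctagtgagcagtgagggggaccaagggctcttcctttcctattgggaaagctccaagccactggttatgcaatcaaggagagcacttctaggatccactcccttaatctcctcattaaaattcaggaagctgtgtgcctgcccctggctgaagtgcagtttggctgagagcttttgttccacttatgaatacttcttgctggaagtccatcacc
Acsbg1, chr9:54661886-54662135, - strand: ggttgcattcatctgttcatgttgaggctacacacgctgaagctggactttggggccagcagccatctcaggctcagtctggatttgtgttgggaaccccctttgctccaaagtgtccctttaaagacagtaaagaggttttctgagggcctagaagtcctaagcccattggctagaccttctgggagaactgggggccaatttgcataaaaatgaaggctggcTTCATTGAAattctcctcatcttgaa
S100b, chr10:76253586-76253835, + strand: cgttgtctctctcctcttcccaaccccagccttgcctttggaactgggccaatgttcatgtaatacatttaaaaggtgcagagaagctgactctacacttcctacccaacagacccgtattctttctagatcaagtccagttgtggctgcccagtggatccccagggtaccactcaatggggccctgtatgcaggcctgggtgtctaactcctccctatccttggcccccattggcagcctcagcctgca
Slc1a2, chr2:102706188-102706437, + strand: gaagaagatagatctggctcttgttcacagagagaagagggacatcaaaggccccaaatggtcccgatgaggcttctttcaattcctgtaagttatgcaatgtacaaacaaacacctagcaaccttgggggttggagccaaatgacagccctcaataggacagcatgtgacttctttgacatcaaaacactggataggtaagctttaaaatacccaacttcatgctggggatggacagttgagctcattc
The motifs were a STAT site, TTCNNNGAA, held by 7.02% of the 32851 promoters of this length, a SOX site, AACAAT, held by 9.42%, and a TATA box, TATAAA, held by 12.4%. Acsbg1 held 1 match, to the STAT site, which began 26 bases before the start, and the other 4 sequences held these letters nowhere. Glul had 15 CpG dinucleotides and 64.8% G and C in this window, against 0 CpG and 48% in Mlc1, 1 and 48.4% in Acsbg1, 2 and 53.6% in S100b, and 1 and 44.8% in Slc1a2. A match is a description of the letters and says nothing of binding.

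**Figure D1:**
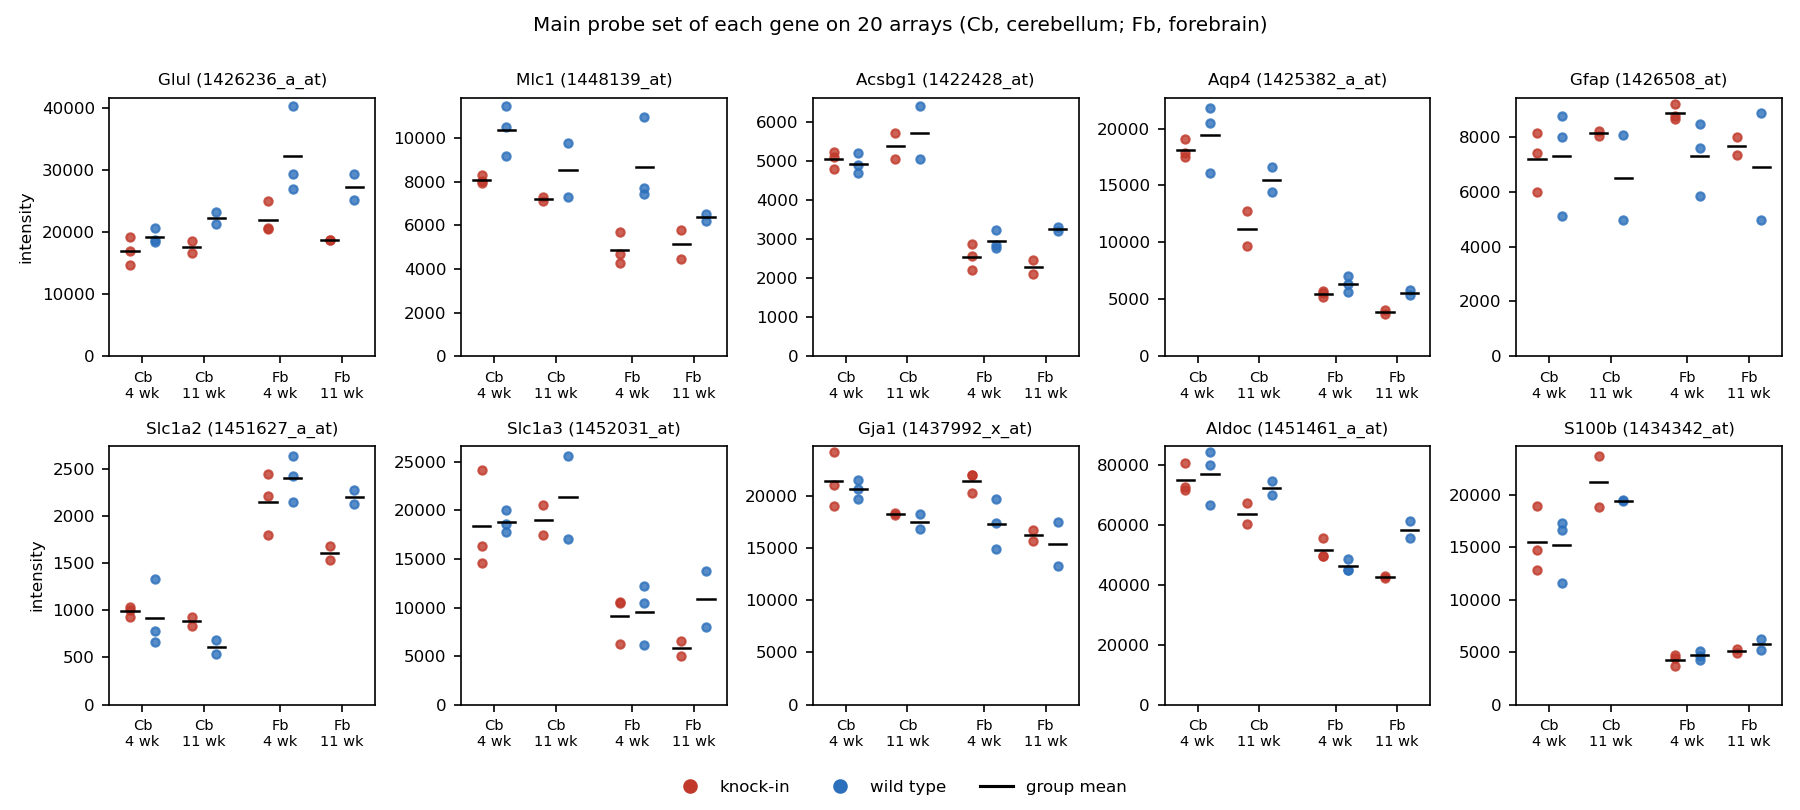
Intensity, on a linear axis that starts at 0, of the main probe set of each gene on the 20 arrays, by region and age, with knock-in arrays in red left of wild-type arrays in blue and a black bar at each group mean. S100b, Aqp4, Slc1a3 and Acsbg1 stood higher on cerebellum arrays, Slc1a2 stood higher on forebrain arrays, and Glul and Mlc1 were lower on knock-in than on wild-type forebrain arrays.

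The clearest pattern in these genes was the difference between cerebellum and forebrain. By their main probe sets, S100b was 3.85-fold higher in cerebellum of knock-in mice and 3.29-fold in wild-type mice, and in the same order of genotypes Aqp4 was 3.06-fold and 2.89-fold higher, Slc1a3 2.58-fold and 2.02-fold, and Acsbg1 2.16-fold and 1.70-fold. Slc1a2 and Glul were lower in cerebellum. Of the 22 probe sets, 12 were higher in cerebellum and 2 lower in knock-in mice, with a median log2 difference of 0.48, against 0.02 over all 15627 probe sets tested. In wild-type mice 10 were higher and 3 lower, with a median of 0.25 against 0.04. An adjusted p under 0.05 was the threshold, from a linear model over all 20 arrays with p-values adjusted over 15627 probe sets. At it, 24.5% of all probe sets were higher in cerebellum and 21.2% lower in knock-in mice, against 26.6% and 21.3% in wild-type mice. The share of higher calls among the 22 probe sets was above that background, and the share of lower calls was below it.

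The 2 glutamate transporters went opposite ways between the regions. The main probe set of Slc1a3 (1452031_at) gave 14543 to 25633 with a median of 18191 over the 10 cerebellum arrays, and 5016 to 13756 with a median of 9191 over the 10 forebrain arrays. The lowest cerebellum array was above the highest forebrain array. The log2 difference was 1.37 ± 0.23 (standard error) in knock-in mice (adjusted p = 0.000141) and 1.01 ± 0.23 in wild-type mice (adjusted p = 0.00165), and the other 2 Slc1a3 probe sets were also higher in both genotypes, by 0.82 to 1.13. Slc1a2 (1451627_a_at) was dim, at 541 to 1330 with a median of 884 in cerebellum and 1533 to 2643 with a median of 2179 in forebrain. No cerebellum array reached the lowest forebrain array. Slc1a2 fell by 0.97 ± 0.15 in knock-in cerebellum (adjusted p = 8.86e-05) and by 1.63 ± 0.15 in wild-type cerebellum (adjusted p = 3.08e-07) against forebrain. The smaller size in knock-in mice was not established, since the genotype difference between the regions was 0.65 ± 0.22 with an adjusted p of 0.316.

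Glul, the enzyme that uses the glutamate taken up, was lower in cerebellum with 1 of its probe sets in knock-in mice and with both in wild-type mice. Its second probe set (1426235_a_at) gave 5933 to 8412 with a median of 6765 in cerebellum and 6667 to 13270 with a median of 11492 in forebrain. The ranges met only at 2 knock-in forebrain arrays at 11 weeks, with 7629 and 6667. The log2 difference was -0.53 ± 0.09 in knock-in mice (adjusted p = 0.000169) and -0.63 ± 0.09 in wild-type mice (adjusted p = 2.61e-05). The main probe set (1426236_a_at) gave -0.24 ± 0.12 in knock-in mice, which did not pass (adjusted p = 0.109), and -0.51 ± 0.12 in wild-type mice (adjusted p = 0.00181).

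S100b, the calcium-binding protein, had the largest regional difference of the 10 genes in both genotypes, and Aqp4, the water channel, followed it among the genes that were higher in cerebellum. The 2 S100b probe sets (1434342_at and 1419383_at) were higher by 1.95 ± 0.14 and 2.02 ± 0.13 in knock-in cerebellum (adjusted p = 1e-08 and 3.89e-09) and by 1.72 ± 0.14 and 1.98 ± 0.13 in wild-type cerebellum (adjusted p = 3.73e-08 and 4.16e-09). S100b intensity with the first of these was 11550 to 23654 in cerebellum and 3631 to 6272 in forebrain, with no overlap. The 2 Aqp4 probe sets (1425382_a_at and 1434449_at) were higher by 1.61 ± 0.10 and 1.47 ± 0.11 in knock-in mice (adjusted p = 3.88e-09 and 3.04e-08) and by 1.53 ± 0.10 and 1.37 ± 0.11 in wild-type mice (adjusted p = 6.2e-09 and 5.76e-08). Aqp4 ranged over 9686 to 21805 in cerebellum and 3746 to 7074 in forebrain with the first. Neither gene had an array of one region within the range of the other.

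Among the enzymes, Acsbg1 was higher by 1.11 ± 0.10 in knock-in cerebellum (adjusted p = 1.13e-07) and by 0.77 ± 0.10 in wild-type cerebellum (adjusted p = 6.33e-06). Its intensity was 4681 to 6401 in cerebellum and 2102 to 3305 in forebrain. The bright Aldoc probe set (1451461_a_at) was higher by 0.56 ± 0.08 in knock-in cerebellum (adjusted p = 3.93e-05) and by 0.52 ± 0.08 in wild-type cerebellum (adjusted p = 7.71e-05), a tissue in which Purkinje cells can add to its signal. The 6 measured Purkinje cell markers were all higher in cerebellum in both genotypes, with median log2 differences of 4.66 in knock-in mice and 4.92 in the wild type, and their part in the Aldoc result was not tested. The dim Aldoc probe set (1424714_at) did not pass, at -0.22 ± 0.17 in knock-in mice and -0.28 ± 0.17 in the wild type, so the 2 probe sets of this gene differed in sign.

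Mlc1 was higher in knock-in cerebellum by 0.62 ± 0.13 (adjusted p = 0.000946). In wild-type cerebellum it was higher by 0.34 ± 0.13 (adjusted p = 0.0385), a call that held when wild-type cerebellum replicate 1 at 4 weeks, wild-type forebrain replicate 1 at 4 weeks or wild-type cerebellum replicate 2 at 11 weeks was left out and ended without any of the other 7 wild-type arrays (adjusted p up to 0.198), without the filter (0.0632) and with the wild-type arrays fitted alone (0.0756). Of the 6 Gja1 probe sets, 2 passed between the regions in knock-in mice, 1438945_x_at at 0.51 ± 0.11 (adjusted p = 0.00166) and 1415800_at at 0.44 ± 0.13 (adjusted p = 0.0132, but 0.0733 without knock-in forebrain replicate 2 at 11 weeks), and 0 did in wild-type mice (limma, 4 at an unadjusted p under 0.05). Gfap passed in neither genotype, at -0.12 ± 0.19 and 0.01 ± 0.14 in knock-in and -0.05 ± 0.19 and 0.12 ± 0.14 in wild-type mice for its 2 probe sets. The 95% interval for the main Gfap probe set was -0.52 to 0.29 in knock-in mice and -0.45 to 0.36 in the wild type.

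Wild-type arrays of 4 weeks, for which every label names the same region, gave 9 higher and 3 lower probe sets between the regions, and the call that was lost was that of Mlc1, at 0.28 (adjusted p = 0.198). Leaving out knock-in forebrain replicate 3 at 4 weeks, the array whose description names cerebellum, left 14 calls in knock-in mice. The regions also differ in other cell types: 8 of 9 oligodendrocyte markers were higher and all 10 measured microglia markers were lower in cerebellum in both genotypes. Their part in the regional differences was not tested.

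**Figure D2:**
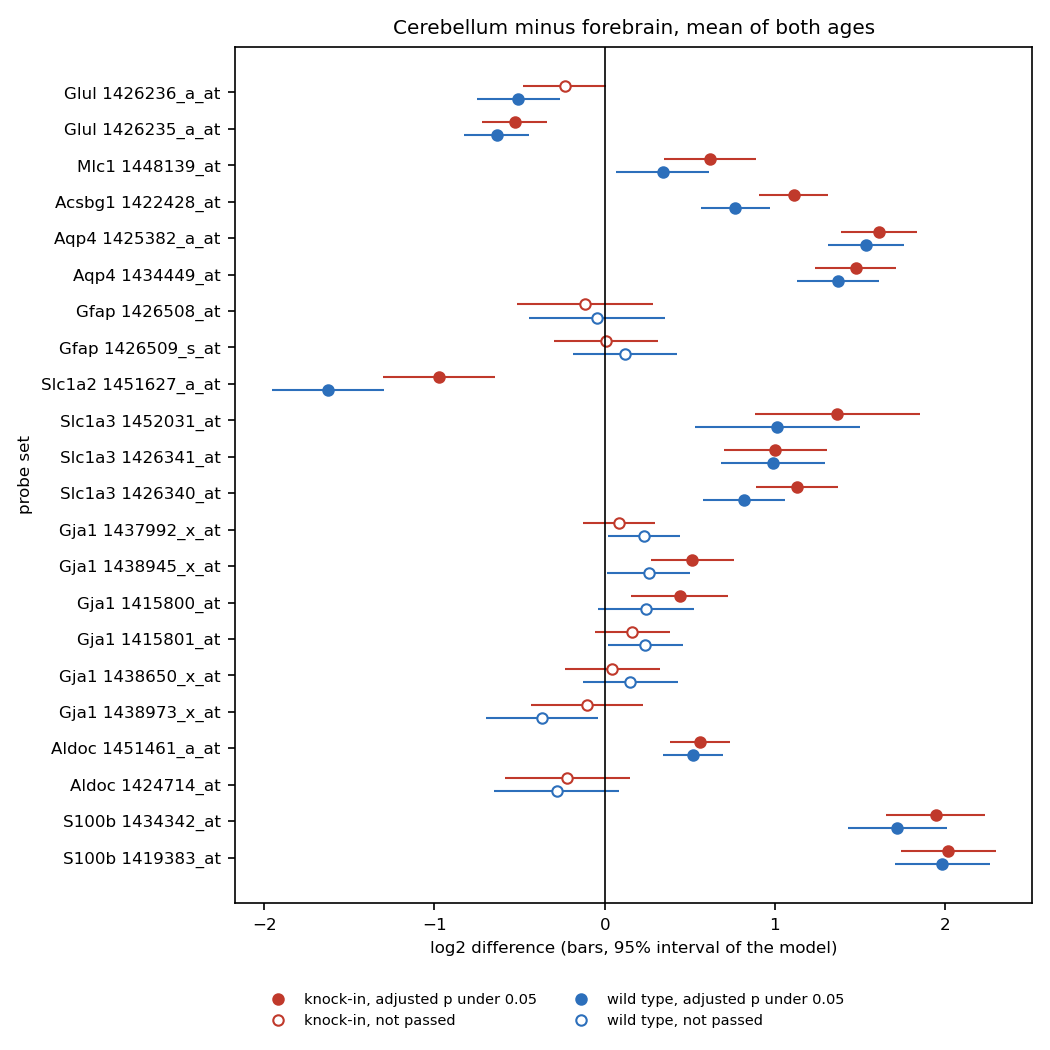
Log2 difference of cerebellum minus forebrain for each of the 22 probe sets in knock-in mice (red) and wild-type mice (blue), with bars for the 95% interval of the model and filled points for an adjusted p under 0.05. S100b, Aqp4, Slc1a3 and Acsbg1 lie at 0.77 to 2.02, Slc1a2 lies at -0.97 and -1.63, and Gfap lies near 0 in both genotypes.

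Other genes of the same cells showed where these 10 stand. A list of 67 further astrocyte gene symbols, chosen like the members with results of these data known, held Plpp3 also under its former symbol Ppap2b. It had 56 measured genes, those with a probe set of their own that passed the dim signal filter, each read by its main one. Of these, 27 were higher and 13 lower in cerebellum of knock-in mice, with a median log2 difference of 0.26, against -0.01 over all 9105 genes, of which 24.2% were higher and 23.1% lower. In wild-type mice 28 were higher and 11 lower, with a median of 0.30 against 0.04, and 27% and 22.7% of all genes were called. The ones named are the 4 with the smallest p in each genotype, and all 4 were higher in cerebellum. Gdf10, a growth factor of Bergmann glia, was at 4.42 in knock-in mice and 4.58 in the wild type. In the same order, Vim, an intermediate filament, was at 2.17 and 2.27. Grin2c, an NMDA receptor subunit that granule neurons also make, was at 2.71 and 2.49, and Hopx was at 1.67 and 1.77. Forebrain means of Gdf10 were 569 to 698, near the filter limits of 606 to 775, so the size of its difference depends on the offset added before the log. Its cerebellum means were 12072 to 16105, so all 4 cerebellum groups carried this Bergmann glia signal.

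The genotype comparison set knock-in arrays against wild-type arrays in each region and at each age. In forebrain, averaged over both ages, Glul, Mlc1, Acsbg1 and 1 of the 2 Aqp4 probe sets were lower in knock-in mice, with log2 differences of -0.57 to -0.36. Of 22 probe sets 5 were lower and 0 higher, with a median log2 difference of -0.15, against 0.04 over all probe sets, of which 13.5% were called and 5.13% were lower. In cerebellum, 1 of 22 was called, a Gja1 probe set that was higher, where 3.35% of all probe sets were called. The difference between the regions was itself not established: 0 of 22 probe sets passed the test of the genotype difference between cerebellum and forebrain (limma, 2 of 22 at an unadjusted p under 0.05, smallest adjusted p 0.316), at a background of 0.282%.

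Mlc1 gave the largest genotype difference that passed. Its intensities in forebrain at 4 weeks were 4292, 5703 and 4700 on the knock-in arrays, against 10957, 7697 and 7420 on the wild-type arrays. All 3 knock-in arrays were below all 3 wild-type arrays. The log2 difference was -0.81 ± 0.16 (adjusted p = 0.011), and it was -0.79 (adjusted p = 0.0287) without the knock-in array whose description names cerebellum. With the 6 compared arrays fitted alone, the adjusted p was 0.0747. At 11 weeks Mlc1 was at 4485 and 5783 in knock-in forebrain, against 6547 and 6186 in wild-type forebrain, a difference of -0.32 ± 0.20 that did not pass (adjusted p = 0.47). The mean of both ages was -0.57 ± 0.13 (adjusted p = 0.0123), and leaving out knock-in forebrain replicate 1 at 11 weeks raised the adjusted p to 0.0503.

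Glul was lower in knock-in forebrain with both of its probe sets, which differed in the age at which each passed. The main one gave 20489, 25014 and 20615 in knock-in forebrain at 4 weeks, against 40371, 27026 and 29421 in wild-type forebrain. At 11 weeks it gave 18790 and 18664 in knock-in mice, against 29311 and 25164 in wild-type mice. The brightest knock-in array lay under the dimmest wild-type array of either age. Glul differed by -0.53 ± 0.15 at 4 weeks (adjusted p = 0.0393), a call that ended without knock-in forebrain replicate 1 or 3 or wild-type forebrain replicate 1 or 3 of that age (adjusted p up to 0.118), without the filter (0.0636) and with the 6 arrays fitted alone (0.148). At 11 weeks the difference was -0.54 ± 0.18 (adjusted p = 0.169). Over both ages it was -0.54 ± 0.12 (adjusted p = 0.00993). This call held without any 1 of the 10 forebrain arrays (adjusted p up to 0.0494) and in every other setting tried.

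The second Glul probe set gave 11370, 13270 and 10474 in knock-in forebrain at 4 weeks, against 11530, 12510 and 12167 in wild-type forebrain, and the groups overlapped. At 11 weeks it gave 7629 and 6667 in knock-in mice, against 11813 and 11454 in wild-type mice, with no overlap. The difference was -0.05 ± 0.11 at 4 weeks and -0.70 ± 0.14 at 11 weeks (adjusted p = 0.0308), and the second call ended when any 1 of the 4 arrays was left out (adjusted p up to 0.251), without the filter (0.0628) and with the 4 arrays fitted alone (0.255). The change of the genotype difference with age, -0.65 ± 0.18, did not pass (adjusted p = 0.565), as for all 22 probe sets in forebrain (limma, 2 at an unadjusted p under 0.05) at a background of 0%. Averaged over both ages Glul was lower by 0.38 with this probe set (-0.38 ± 0.09, adjusted p = 0.0154), a call that ended without knock-in replicate 2 or wild-type replicate 1 of forebrain at 11 weeks (adjusted p up to 0.0778).

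Acsbg1 and Aqp4 passed over both ages and at neither age alone. Acsbg1 gave 2200, 2865 and 2570 in knock-in forebrain at 4 weeks, against 2842, 2784 and 3243 in wild-type forebrain, which overlapped. At 11 weeks it gave 2102 and 2461 in knock-in mice, against 3218 and 3305 in wild-type mice, which did not. The mean difference for Acsbg1 was -0.37 ± 0.10 (adjusted p = 0.022), and the call ended without knock-in replicate 1, wild-type replicate 1 or wild-type replicate 2 of forebrain at 11 weeks (adjusted p up to 0.081) and with the forebrain arrays fitted alone (0.0581). The main Aqp4 probe set gave 5206, 5551 and 5751 in knock-in forebrain at 4 weeks, against 5673, 6387 and 7074 in wild-type forebrain, and at 11 weeks 4049 and 3746 in knock-in mice, against 5832 and 5360 in wild-type mice. The knock-in arrays were lower at both ages except for 1 pair of arrays at 4 weeks that crossed. Aqp4 differed by -0.36 ± 0.10 (adjusted p = 0.0334), which held when knock-in forebrain replicate 3 or wild-type forebrain replicate 1 at 4 weeks was left out and ended when any of the other 8 arrays was (adjusted p up to 0.12) and without the filter (0.0561). Its second probe set gave -0.32 ± 0.11 and did not pass (adjusted p = 0.0742).

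Most of the 22 probe sets had no overlap between the genotypes in forebrain at 11 weeks, where each group held 2 arrays. All knock-in arrays were below all wild-type arrays for 12 of 22 probe sets and above them for 2, where 21.1% and 26.9% of all probe sets did so. These 12 were both of Glul, both of Aqp4, all 3 of Slc1a3, the bright Aldoc probe set, Gja1 1415801_at, Mlc1, Acsbg1 and Slc1a2. The largest of these differences was that of Slc1a3 1452031_at, at 6564 and 5016 in knock-in mice, against 7944 and 13756 in wild-type mice, with a log2 difference of -0.86 ± 0.35 (adjusted p = 0.249). The median over the 22 probe sets was -0.27, against 0.04 over all probe sets, and 1 of 22 passed, where 0.864% of all probe sets passed and 0.48% were lower. At 4 weeks all knock-in arrays were below all wild-type arrays for 2 of 22 and above them for 4, where 11.5% and 17.2% of all probe sets did so. The median over the 22 was then 0.00, against 0.04 over all probe sets, and 2 of 22 passed, both lower, where 7.37% of all probe sets passed and 2.42% were lower.

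Gfap, the filament protein used as a mark of reactive astrocytes, passed in no genotype comparison. In forebrain at 4 weeks its main probe set gave 8665, 9215 and 8760 in knock-in mice, against 5853, 7599 and 8470 in wild-type mice. The knock-in arrays were all higher, and the log2 difference of 0.30 ± 0.24 did not pass (adjusted p = 0.454). The 95% interval of the forebrain difference over both ages was -0.15 to 0.65, and that of the cerebellum difference was -0.22 to 0.58. S100b did not pass in any genotype comparison either, with differences over all 4 region and age groups of -0.04 ± 0.10 and 0.15 ± 0.09 for its 2 probe sets.

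**Figure D3:**
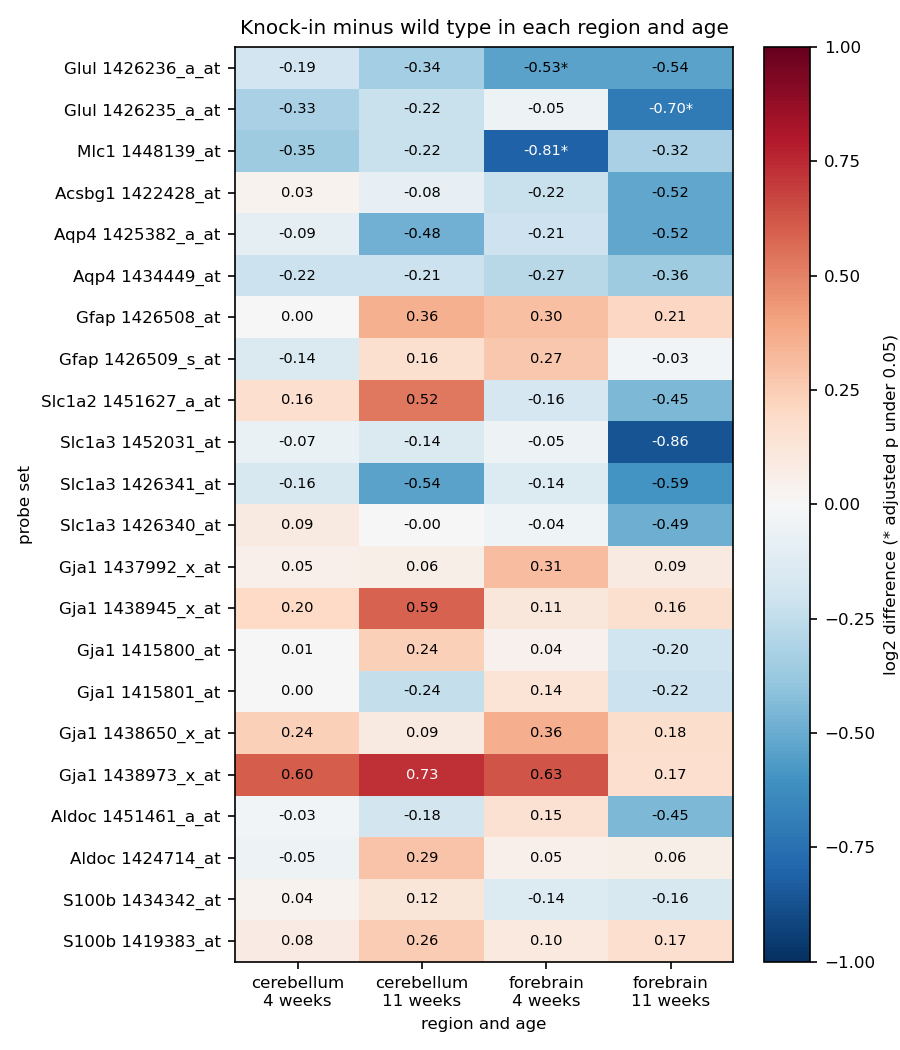
Log2 difference of knock-in minus wild type for each of the 22 probe sets in each region and age, on a colour scale from -1 (blue) to 1 (red), with an asterisk at an adjusted p under 0.05. The 3 asterisks are in forebrain, Mlc1 at -0.81 and Glul at -0.53 at 4 weeks and Glul at -0.70 at 11 weeks.

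In cerebellum, 0 of 22 probe sets passed at 4 weeks (limma, 3 at an unadjusted p under 0.05, smallest adjusted p 0.204), where 0.0512% of all probe sets passed. At 11 weeks 0 of 22 passed (limma, 5 at an unadjusted p under 0.05, smallest adjusted p 0.143), where 0.346% did. The knock-in arrays were all below the wild-type arrays at 4 weeks for 3 of the 22 and all above them for 1, where 7.59% and 11.2% of all probe sets did so. They were below them at 11 weeks for 7 of the 22 and above them for 4, where 22.4% and 26.9% of all probe sets did so. Mlc1 was at 8022, 8309 and 7968 in knock-in cerebellum at 4 weeks, against 9199, 10493 and 11497 in wild-type cerebellum, with no overlap and a log2 difference of -0.35 ± 0.16 (adjusted p = 0.366). Averaged over both ages, Glul gave -0.26 ± 0.12 and -0.27 ± 0.09, Mlc1 -0.29 ± 0.13 and the main Aqp4 probe set -0.28 ± 0.10, all with adjusted p-values of 0.0978 to 0.204. The change of the genotype difference with age passed for 0 of 22 (limma, 0 at an unadjusted p under 0.05, smallest adjusted p 0.915), at a background of 0.0256%.

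The call in cerebellum was that of Gja1 1438973_x_at, 1 of 4 Gja1 probe sets whose name marks probes that can also match other sequences. It gave 2043, 1394 and 2122 in knock-in cerebellum at 4 weeks, against 1201, 1384 and 1024 in wild-type cerebellum, and at 11 weeks 1631 and 1870 in knock-in mice, against 1142 and 961 in wild-type mice. No knock-in array was below a wild-type array of any age. The log2 difference over both ages was 0.67 ± 0.15 (adjusted p = 0.0312), where 2.25% of all probe sets were higher. The call held without knock-in cerebellum replicate 2, wild-type cerebellum replicate 1 or wild-type cerebellum replicate 2 at 4 weeks and ended without any of the other 7 arrays (adjusted p up to 0.113), without the filter (0.0571) and with the cerebellum arrays fitted alone (0.0504). The 2 Gja1 probe sets without that mark, 1415800_at and 1415801_at, gave 0.12 ± 0.13 and -0.12 ± 0.10. The other 3, also marked, gave 0.06 ± 0.10, 0.40 ± 0.11 and 0.17 ± 0.13, so 5 of the 6 Gja1 values were above 0 and 1 passed.

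Over all 4 region and age groups, 7 of the 22 probe sets were lower in knock-in mice and 2 were higher, where 23.7% of all probe sets passed, 8.65% lower and 15% higher. The lower ones were Glul at -0.40 ± 0.08 and -0.32 ± 0.06 (adjusted p = 0.00387 and 0.00306), Mlc1 at -0.43 ± 0.09 (adjusted p = 0.00472), Aqp4 at -0.32 ± 0.07 and -0.26 ± 0.08 (adjusted p = 0.00709 and 0.027), Slc1a3 1426341_at at -0.36 ± 0.10 (adjusted p = 0.0197) and Acsbg1 at -0.20 ± 0.07 (adjusted p = 0.0464). Gja1 1438973_x_at was higher by 0.53 ± 0.11 (adjusted p = 0.00387) and Gja1 1438945_x_at by 0.27 ± 0.08 (adjusted p = 0.0275). Both of these Gja1 probe sets carry the mark of probes that can also match other sequences. The Gja1 probe sets without that mark, 1415800_at and 1415801_at, did not pass, nor did the other Slc1a3 probe sets. Both Glul probe sets, Mlc1, Aqp4 1425382_a_at and Gja1 1438973_x_at passed in every setting and without any 1 array. The other 4 did not: Acsbg1 ended without any of 14 of the 20 arrays (adjusted p up to 0.127) and without the filter (0.0673), and Aqp4 1434449_at, Slc1a3 1426341_at and Gja1 1438945_x_at ended without 4, 3 and 4 arrays, with adjusted p-values of up to 0.0806, 0.0569 and 0.0683. Acsbg1 held without wild-type cerebellum replicate 1, knock-in forebrain replicate 2 and wild-type forebrain replicates 1 and 2 at 4 weeks, and without wild-type cerebellum replicate 2 and knock-in forebrain replicate 2 at 11 weeks. For the other 3 the arrays were knock-in cerebellum replicate 2 at 11 weeks for each of the 3, wild-type cerebellum replicate 1 and wild-type forebrain replicate 1 at 11 weeks for Aqp4 and Slc1a3, knock-in forebrain replicate 1 at 11 weeks for Aqp4 and Gja1, and the replicates 2 of wild-type cerebellum and forebrain at 11 weeks for Gja1. Leaving out knock-in cerebellum replicate 2 at 11 weeks alone lowered the count of calls to 5 of 22.

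**Figure D4:**
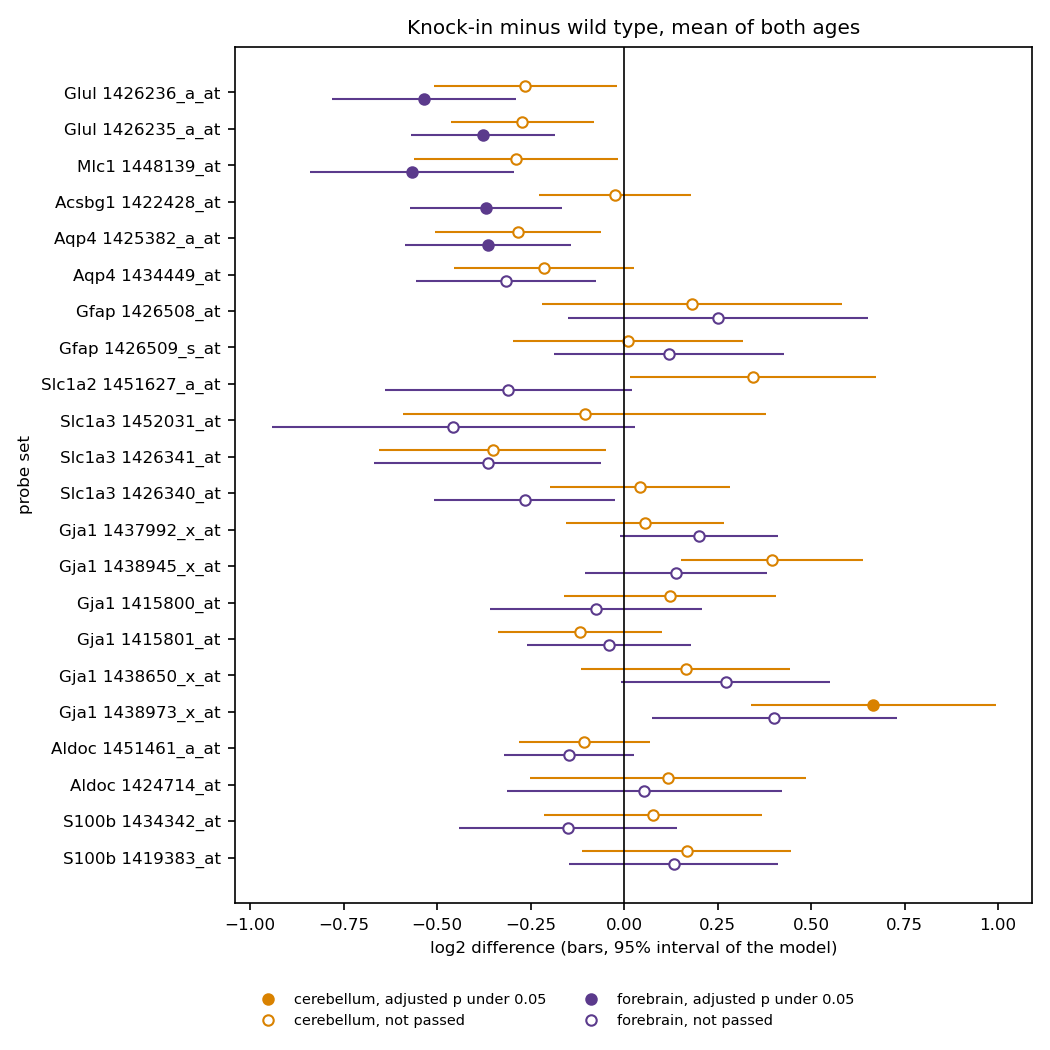
Log2 difference of knock-in minus wild type over both ages for each of the 22 probe sets in cerebellum (orange) and forebrain (purple), with bars for the 95% interval of the model and filled points for an adjusted p under 0.05. The filled points are Glul (both probe sets), Mlc1, Acsbg1 and 1 Aqp4 probe set in forebrain, at -0.36 to -0.57, and Gja1 1438973_x_at in cerebellum, at 0.67.

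Other measures are given beside the genotype results. The ratio of 3′ to 5′ GAPDH probes, a sign of RNA quality, was 0.827 to 0.890 on knock-in and 0.744 to 0.828 on wild-type forebrain arrays at 4 weeks, and at 11 weeks 0.804 to 0.817 on knock-in and 0.805 to 0.821 on wild-type forebrain arrays. In cerebellum the ratio was 0.828 to 0.850 on knock-in and 0.824 to 0.864 on wild-type arrays at 4 weeks, which overlapped, and at 11 weeks 0.848 to 0.903 on knock-in and 0.823 to 0.842 on wild-type arrays. Median intensity per array was 1064 to 1180 on the 10 knock-in and 979 to 1072 on the 10 wild-type arrays. Quantile and cyclic loess normalization, which remove such shifts, ended none of the 9 genotype calls named for single regions or ages, while they moved the split of all forebrain calls at 4 weeks to 458 higher and 467 lower and to 379 higher and 504 lower, against 773 higher and 378 lower as deposited. The summed intensity of 6 measured cortical pyramidal neuron markers was 60908 to 63946 in knock-in and 61482 to 89650 in wild-type forebrain at 4 weeks, and at 11 weeks 50774 to 59529 in knock-in and 69741 to 70237 in wild-type forebrain, with 1 of 6 markers lower at each age. Of all genes, 2.2% were lower at 4 weeks and 0.494% at 11 weeks. The summed 10 microglia markers were 48309 to 53582 in knock-in and 42571 to 44824 in wild-type forebrain at 4 weeks, with 2 of 10 higher, and at 11 weeks 40050 to 44060 in knock-in and 43348 to 46078 in wild-type forebrain, with 0 of 10 called (limma, 2 at an unadjusted p under 0.05). Of all genes, 5.55% were higher at 4 weeks and 0.483% at 11 weeks. The summed 9 oligodendrocyte markers were 129796 to 164652 in knock-in and 125152 to 129865 in wild-type forebrain at 4 weeks, and at 11 weeks 82682 to 94218 in knock-in and 92604 to 110894 in wild-type forebrain. The summed 9 endothelium markers were 25507 to 28413 in knock-in and 21918.5 to 28967 in wild-type forebrain at 4 weeks, with 1 of 9 lower. At 11 weeks they were 21716 to 23067 in knock-in and 20526 to 22643 in wild-type forebrain, with 0 of 9 called. The part of these measures in the genotype results was not tested.

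The wider astrocyte list was also compared between the genotypes. In forebrain over both ages 3 of its 56 measured genes were lower in knock-in mice and 1 was higher, with a median log2 difference of -0.05 against 0.05 over all genes, of which 4.83% were lower and 9.45% higher. The lower ones were Dio2, the thyroid hormone deiodinase of astrocytes, at -0.61 ± 0.15 (adjusted p = 0.0155), Grin2c at -0.41 ± 0.12 (adjusted p = 0.0329) and the protease gene Htra1 at -0.36 ± 0.10 (adjusted p = 0.0343). Sparc, a matrix protein that vessels and microglia can also make, was the higher one, at 0.56 ± 0.09 (adjusted p = 0.00203). At 4 weeks Sparc averaged 14900 ± 803 in knock-in forebrain, against 10789 ± 1444 in that of wild-type mice (SD, n = 3 each), and it was the single gene of the list that passed at 4 weeks (0.47 ± 0.11, adjusted p = 0.0225) and at 11 weeks (0.64 ± 0.14, adjusted p = 0.042), beside 5.55% and 0.483% of all genes higher at those ages. Over all 4 region and age groups 8 of the 56 were lower and 1 higher, where 8.47% of all genes were lower and 16.2% higher, and the named ones were Htra1, Slc4a4, a bicarbonate transporter, and Plpp3 at -0.31, -0.32 and -0.22, with Sparc at 0.32. In cerebellum over both ages 1 of 56 passed, Slc4a4 at -0.44 ± 0.11 (adjusted p = 0.039), where 1.13% of all genes were lower, and the median was -0.08 over the list, against 0.02 over all genes.

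Genes known to rise in reactive astrocytes were a second list, of 37 genes with 20 measured. The rest had no probe set of their own that passed the filter on dim signals. At 4 weeks in forebrain 4 of 20 were higher in knock-in mice and 0 lower, where 5.55% of all genes were higher and 2.2% lower. They were Serping1, a complement inhibitor, at 0.65 ± 0.13 (adjusted p = 0.0125), the cytokine gene Clcf1 at 0.69 ± 0.16 (adjusted p = 0.0211), Cd14, an endotoxin co-receptor that microglia also make, at 0.63 ± 0.16 (adjusted p = 0.0314), and H2-D1, a class I histocompatibility gene, at 0.43 ± 0.12 (adjusted p = 0.0413). The H2-D1 probe set can also match other genes of that family. The other 16 genes did not pass at 4 weeks, and Vim and Ptgs2 had lower means in knock-in than in wild-type forebrain. Serping1 averaged 1090 ± 140 in knock-in forebrain of this age, against 691 ± 92.8 in that of wild-type mice (SD, n = 3 each). Wild-type forebrain means at this age were also low for Clcf1 (629) and Cd14 (780), near the filter limits of 606 to 775. That of H2-D1 was 3924. The alternative settings tried for the 22 probe sets are not given for this list, and the part of array scaling in its calls was not tested. At 11 weeks 0 of 20 passed in forebrain (limma, 3 at an unadjusted p under 0.05), where 0.483% of all genes were higher and 0.494% lower. Over both ages the same 4 genes were higher by 0.30 to 0.55, and 0 were lower, beside 9.45% higher and 4.83% lower among all genes. In cerebellum 0 of 20 passed at 4 or 11 weeks (limma, 6 and 3 at an unadjusted p under 0.05), where 0.0659% and 0.362% of all genes did. Cd14 passed over both ages, at 0.62 ± 0.13 (adjusted p = 0.0195), where 2.59% of all genes were higher. Its wild-type cerebellum means of 616 at 4 weeks and 605 at 11 weeks were near the lowest filter limit of 606. Its knock-in cerebellum means were 1101 and 819. Over all 4 region and age groups 7 of 20 were higher and 0 lower, where 16.2% of all genes were higher and 8.47% lower. Of 10 measured microglia markers, 2 were also higher in knock-in forebrain at 4 weeks. At 11 weeks 0 of 10 passed there (limma, 2 at an unadjusted p under 0.05). The part of microglia in the results of this list was not tested.

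With age, 1 of the 22 probe sets passed. The main Aqp4 probe set gave 12741 and 9686 in knock-in cerebellum at 11 weeks, against 17487, 19049 and 17842 at 4 weeks, with no overlap. It differed by -0.70 ± 0.15 (adjusted p = 0.0454), where 0.557% of all probe sets passed, and the call ended without any of 4 of the 5 arrays, all but knock-in cerebellum replicate 1 at 11 weeks (adjusted p up to 0.604), without the filter (0.0924) and with the 5 arrays fitted alone (0.334). The second Aqp4 probe set gave -0.18 ± 0.16, and wild-type cerebellum gave -0.32 ± 0.15 (adjusted p = 0.533) with the first, so neither a second probe set nor the other genotype passed. In knock-in cerebellum 2 of 9 oligodendrocyte markers were also lower at 11 weeks, with a median of -0.85, and in wild-type cerebellum 0 of 9 passed (limma, 7 at an unadjusted p under 0.05), with a median of -0.62. Their summed intensity in knock-in cerebellum was 132216 to 136826 at 11 weeks, against 178364 to 231961 at 4 weeks, and their part in the Aqp4 result was not tested. In knock-in forebrain 0 of 22 passed (limma, 8 at an unadjusted p under 0.05) at a background of 0.064%, in wild-type cerebellum 0 (limma, 2) at 0.198%, and in wild-type forebrain 0 (limma, 2) at 0.0064%. The smallest adjusted p in knock-in forebrain, 0.055, was that of Glul 1426235_a_at, at -0.71 ± 0.13, with a value of -0.05 ± 0.13 in wild-type forebrain. These age and genotype comparisons share arrays. Among the astrocyte list, Fabp7, a fatty acid binding protein of radial glia and Bergmann glia, was lower at 11 weeks in wild-type cerebellum, at -1.03 ± 0.19 (adjusted p = 0.0353). It was the 1 of 56 that passed there, where 0.198% of all genes passed. Its mean in wild-type cerebellum was 3877 at 11 weeks and 7963 at 4 weeks. In knock-in cerebellum the mean was 5014 and 8201, a fall that did not pass. Of the reactive list, S1pr3, a sphingosine-1-phosphate receptor, was lower at 11 weeks in knock-in cerebellum (adjusted p = 0.0128), with means of 107 at 11 weeks and 504 at 4 weeks, both under the filter limits. It was the 1 of 20 that passed there, where 0.505% of all genes passed.

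After the mean of each region was subtracted, the 45 pairs of main probe sets had correlations of log2 intensity over the 20 arrays of -0.475 to 0.747, with a median of 0.15 and 31 above 0. Glul and Mlc1 were the highest pair and Aqp4 and S100b the lowest. The points share arrays, scaling and genotype, so these values describe the 20 arrays and carry no test. Probe sets of 1 gene correlated at 0.81 for Aqp4, 0.721 for Gfap, 0.65 for S100b and 0.587 for Glul, but at 0.016 to 0.587 for Slc1a3, -0.239 to 0.673 for Gja1 and -0.011 for Aldoc. The genes whose main probe sets followed a member most closely by the same measure were Rogdi, Ahcyl1 and Ttl for Glul (0.854 to 0.868), Tuba8, Rala and Mmp16 for Mlc1 (0.844 to 0.862), Ttc14, Nrip1 and Sulf2 for Aqp4 (0.896 to 0.909), and Efhd2, Ttc7b and Rnf227 for Acsbg1 (0.753 to 0.774). For S100b they were Sec11c, Il33 and Itgav (0.791 to 0.799), for Gja1 Atp1b1, Dera and Gnb4 (0.804 to 0.839), and for Gfap Emc2, Mfsd10 and Nup155 (0.757 to 0.802). For Slc1a3 they were Clasp1, Kcnh1 and Lrrtm2 (0.681 to 0.789), for Slc1a2 Baalc, Ankrd33b and Zdhhc2 (0.745 to 0.769), and for Aldoc Snap25, Fbln2 and Slc12a5 (0.669 to 0.744).

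**Figure D5:**
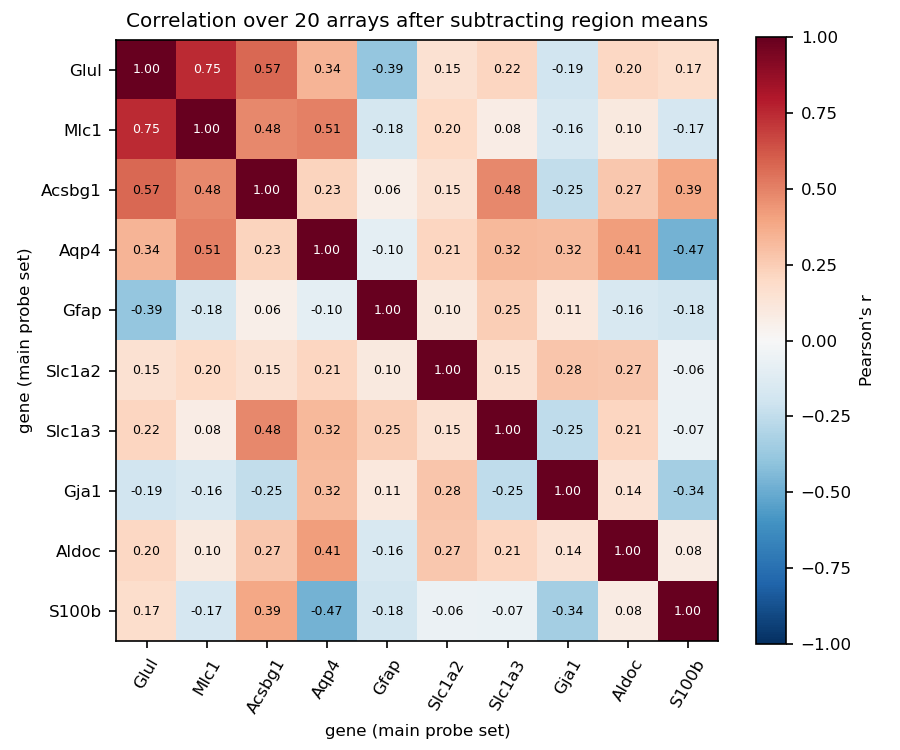
Pearson correlation of log2 intensity between the main probe sets of the 10 genes over 20 arrays, after the mean of each region was subtracted, on a colour scale from -1 (blue) to 1 (red). Glul and Mlc1 reach 0.75, Aqp4 and S100b reach -0.47, and the median of the 45 pairs is 0.15.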

How the data were processed

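Per the labels, each of the 20 samples is total RNA on an array of 1 colour. The values the authors deposited are linear intensities, with a 2% trimmed mean of 2500.59 to 2500.75 on each array, so they had been brought to a common mean. Neither the software nor the probe summary is given in the sources used here. Tests used log2(intensity + 16), on which changes of dim probe sets are understated. A probe set was kept if it exceeded the 40th percentile of at least 2 arrays, which left 15627 of them, and 64 array controls were dropped. With limma 3.58.1 (lmFit, eBayes) in R 4.3.3 and the data.table package (version 1.17.8), 1 mean per group was fitted over the 20 arrays with 12 residual degrees of freedom. Two-sided p-values were adjusted by Benjamini and Hochberg's method over all kept probe sets, with a threshold of 0.05. Log2 differences carry the standard error of the model. A comparison over both ages gives each age the same weight. The main probe set of a gene is the brightest kept one on average (9105 genes), and levels of different probe sets were not compared.

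The members and all gene lists were chosen with earlier results of these data known. All probe sets of the 10 genes were eligible to be named. Of the other astrocyte and reactive lists, up to 4 genes that passed are named for each comparison, by p, with the 3 genes most like each member by correlation. Names come from the platform annotation and sequences from RefSeq, which matched 9 of 10 members. Motifs were searched with Python 3.11, and figures drawn with matplotlib 3.10.9. Arrays have no read depth, and their number limits the precision. The model was tested on simulated data. Alternatives were offsets of 64 and 1, no filter, a filter at the 60th percentile, quantile and cyclic loess normalization, a trended and robust variance prior, replicate blocks, the compared groups alone, 1 probe set per gene and leaving out each array. Wild-type arrays of 4 weeks alone were added after seeing the data.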

Additional observations from a re-analysis of the deposited data

Results flagged for a closer look

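Slc1a2 had knock-in minus wild type differences of opposite sign in the regions at 11 weeks, with no overlap in either: 0.52 in cerebellum (839 and 930 in knock-in mice, against 541 and 686 in wild-type mice) and -0.45 in forebrain (1533 and 1682 in knock-in mice, against 2128 and 2284 in wild-type mice). The wild-type cerebellum array at 541 lay under its filter limit. The difference between the regions at 11 weeks was not tested, and over both ages it was 0.65 with an adjusted p of 0.316. In forebrain, the bright Aldoc probe set was higher in all knock-in arrays at 4 weeks, at 0.15 (49552, 49582 and 55488 in knock-in mice, against 48727, 45096 and 45085 in wild-type mice), and lower in all at 11 weeks, at -0.45 (42332 and 43048 in knock-in mice, against 55548 and 61163 in wild-type mice). Read by genotype, Aldoc was lower at 11 than at 4 weeks in knock-in forebrain, at -0.27, and higher in wild-type forebrain, at 0.33. Both Aldoc readings are 1 interaction, -0.60 with an adjusted p of 0.565, which did not pass.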

How the results depend on the processing

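Of 14 calls between the regions in knock-in mice 13, and of 13 in wild-type mice 12, held in every alternative, array left out included. Calls between genotypes or ages were fewer and less stable, and the cause was not tested. In forebrain at 4 weeks (2 calls), 1 was left with no filter, 1 with the replicate block of number within age and 0 with the compared groups alone. In forebrain at 11 weeks (1 call) and in cerebellum over both ages (1 call), no filter and the compared groups alone left 0 and the trended, robust prior gave 2. With age in knock-in cerebellum (1 call), no filter and the compared groups alone left 0. With age in knock-in forebrain (0 calls), an offset of 64, the 60th percentile filter, cyclic loess, the trended, robust prior and the replicate block each gave 1. Leaving out 1 array gave 1 to 2 calls between genotypes in forebrain at 4 weeks, 0 to 0 at 11 weeks, 2 to 6 over both ages (2 without knock-in or wild-type replicate 1 and 3 without knock-in replicate 2 at 11 weeks), 0 to 2 in cerebellum over both ages, 5 to 9 over all groups, 0 to 1 for the difference between regions, 13 to 14 between the regions in knock-in and 12 to 15 in wild-type mice, and 0 to 1 with age in knock-in cerebellum and forebrain. Same-numbered arrays had correlations of deviations of -0.099 to 0.113. With 2 or 3 arrays in a group, these values cannot decide whether same-numbered arrays are paired. The replicate block as a random term had a correlation of 0.0574 and changed none of these counts by over 1.5 times, and the fixed one no others than those given. The fixed block ended the calls of Glul 1426236_a_at in forebrain at 4 weeks (adjusted p = 0.0579), of Mlc1 between the regions in wild-type mice (0.0635) and of Acsbg1 over all groups (0.0626, and 0.0541 with the random block). Splits of all calls into higher and lower moved with scaling: over both ages in forebrain 1307 and 801 as deposited, 822 and 896 with quantile and 697 and 1071 with cyclic loess normalization; over all groups 2350 and 1351, 1571 and 1585, and 1387 and 1871; in cerebellum over both ages 352 and 172, and 202 and 231 with cyclic loess; in forebrain at 11 weeks 60 and 75, 35 and 83, and 37 and 98.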
